A study of Mus musculus with 12 samples.

Results

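The genes described here are the 44 mouse collagen genes, taken as every gene symbol made of Col, a type number, the letter a and a chain number in both deposited tables, out of 20775 genes listed in each. They were grouped by the matrix their chains build, as 11 fibrillar, 8 basement membrane and 25 other collagen genes. Their RNA was compared between Med30 knockout and Ctrl samples at 2 stages, with 3 samples in each of 4 groups and 12 samples in all. At E10.5, in mid-gestation, hearts with Med30 f/f and Tnnt-Cre (cKO) were set against those of littermates that were Med30 f/f and had no Cre (Ctrl). In adult mice aged 3 months, cardiomyocytes isolated 4 weeks after tamoxifen from Med30 f/f; αMHC-MerCreMer mice (icKO) were compared with those of Med30 f/f mice without Cre (Ctrl), which also received tamoxifen. The labels call both Ctrl groups wild type and name the strain C57BL/6. All groups carried floxed Med30 alleles, whose exon 1 lies between loxP sites in a line made from 1 embryonic stem cell clone, and Cre was driven by cardiomyocyte promoters at both stages. No Ctrl group carried Cre, so an effect of Cre itself on RNA cannot be told apart from the loss of Med30, a subunit of the Mediator complex that links transcription factors to RNA polymerase II. The paper reports no deaths or cardiac dysfunction after tamoxifen in αMHC-MerCreMer mice that lacked a floxed allele. None of these 12 samples came from such mice. The question was which collagen genes changed when cardiomyocytes lost Med30.

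Collagens are secreted proteins of chains that wind into a triple helix, and they make up most of the fibrous matrix around cells. Fibrillar collagens, above all types I and III, form the tensile fibres of the heart and are made mainly by fibroblasts. Basement membrane collagens, above all type IV, form the sheet that surrounds each cardiomyocyte and underlies endothelium, and cardiomyocytes make type IV collagen themselves. The other collagens include beaded filaments (type VI), short-chain networks (type VIII), collagens that decorate fibrils (types IX, XII, XIV and XVI) and collagens that span the cell membrane (types XIII, XVII, XXIII and XXV).

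The promoters shown first are those of 3 members on which the comparisons turn. Col8a1 was the collagen called higher at both stages, Col3a1 had the highest mean RPKM (read counts corrected for the length of a gene and the size of the library) of the fibrillar genes in both tables, and Col5a1 was the fibrillar gene with an adjusted p under 0.05 in both. The 250 bases before the start site are from RefSeq on GRCm38.p6, and none of them overlaps an annotated exon. Col8a1 starts on the minus strand of chromosome 16 and its window is chr16:57754738-57754987. The window of Col3a1, on the plus strand, is chr1:45311288-45311537, and that of Col5a1, also on the plus strand, is chr2:27886175-27886424. Capitals mark matches, on either strand, to the CCAAT box letters CCAAT, the TATA box letters TATAAA, the GC box letters GGGCGG and the Smad element letters CAGAC.
Col8a1: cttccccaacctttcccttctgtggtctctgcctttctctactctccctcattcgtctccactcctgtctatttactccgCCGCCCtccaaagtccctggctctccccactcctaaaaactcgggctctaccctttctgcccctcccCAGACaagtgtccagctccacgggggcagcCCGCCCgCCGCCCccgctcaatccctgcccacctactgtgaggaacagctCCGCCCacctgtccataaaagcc
Col3a1: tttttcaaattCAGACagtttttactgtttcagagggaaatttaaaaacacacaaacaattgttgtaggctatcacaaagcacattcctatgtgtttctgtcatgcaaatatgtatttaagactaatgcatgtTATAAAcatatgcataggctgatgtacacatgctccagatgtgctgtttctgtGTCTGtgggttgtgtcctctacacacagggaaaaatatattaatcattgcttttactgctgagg
Col5a1: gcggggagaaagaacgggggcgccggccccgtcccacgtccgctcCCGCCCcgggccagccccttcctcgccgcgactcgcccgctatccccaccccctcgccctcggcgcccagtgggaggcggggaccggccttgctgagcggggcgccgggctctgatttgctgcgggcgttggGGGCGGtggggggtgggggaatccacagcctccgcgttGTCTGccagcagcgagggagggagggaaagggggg

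The Col8a1 window held GGGCGG at 4 places, with first bases at −170, −73, −66 and −23 from the start site, and CAGAC at −103. In Col3a1 there was a TATAAA match at −117, 2 CAGAC matches at −239 and −64, and no GGGCGG. Col5a1 held 2 GGGCGG matches at −205 and −73 and 1 CAGAC match at −35. Of all 32851 promoter windows in the reference table, 32.7% held GGGCGG, 42.2% CAGAC, 33.8% CCAAT and 12.4% TATAAA. Windows were given for 35 of the 44 collagen genes, and taking the first window of each, 20 held GGGCGG, 15 CAGAC, 11 CCAAT and 5 TATAAA. These are matches of letters and not measured binding sites.

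Several members are neighbours. Col4a1 and Col4a2, the partner chains of the common type IV collagen, lie head to head on chromosome 8 of GRCm38, Col4a1 from 11198423 to 11312826 on the minus strand and Col4a2 from 11312805 to 11449287 on the plus strand, and their first exons share 22 bases. Col4a5 starts at 141475385 on chromosome X, and Col4a6 starts at 141474076 on the opposite strand. Col3a1 ends at 45349706 on chromosome 1, and Col5a2 lies beyond it from 45374321 to 45503282. Whether reads were counted by strand is not stated, so in members whose exons overlap a gene on the other strand, such as Col5a1, Col9a3 and Col10a1, reads of the overlap cannot be told apart.

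Depth, read from the spacing of the lowest RPKM values, was 13700000 to 20000000 reads at E10.5 and 11900000 to 17500000 at 4 weeks, which covers counting error only. Med30 itself was at 10.6, 13.3 and 11.3 RPKM in the E10.5 Ctrl samples and 1.38, 2.02 and 1.004 in cKO. At 4 weeks it was at 7.66, 7.45 and 7.66 RPKM in Ctrl and 3.81, 3.16 and 1.82 in icKO. Over all genes tested, the median change on the log2 scale was −0.13 at E10.5 and 0.57 at 4 weeks, and median-ratio scaling, which lines up the typical gene between samples, moved it to −0.01 and 0.04. At 4 weeks the 20 most abundant genes took 24.8% to 25.4% of the summed RPKM in Ctrl and 11.5% to 13.1% in icKO. Fold changes at 4 weeks are given as deposited, with the value after median-ratio scaling where it is named. The labels do not say that samples of a group came from separate animals, so the p-values measure the spread between these samples, which may be technical. In these bulk samples, more cells of a type and more RNA per cell cannot be told apart.

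**Figure D1:**
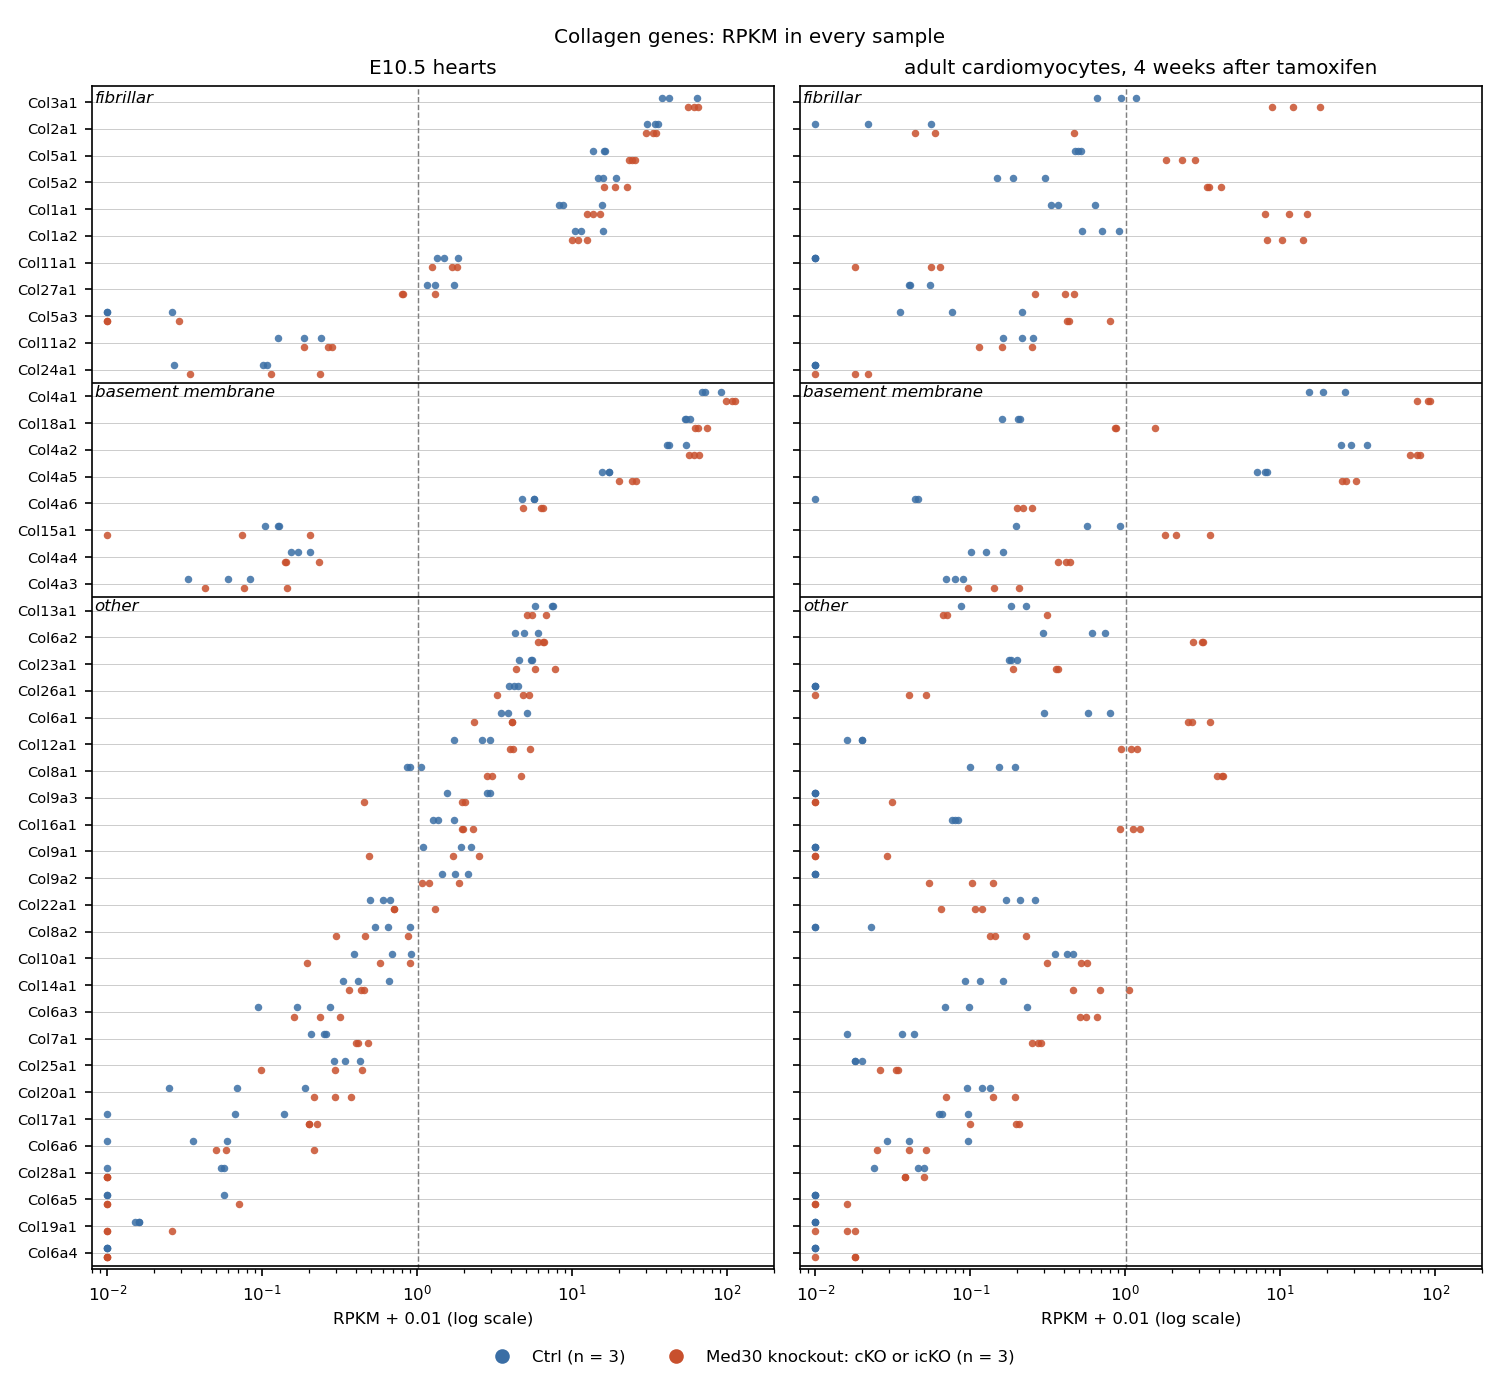
RPKM of the 44 collagen genes in every sample on a log axis after adding 0.01, with E10.5 hearts on the left and adult cardiomyocytes on the right, Ctrl in blue, knockout in orange and a dashed line at an RPKM of 1. Genes are ordered by class and level. Groups of most E10.5 genes overlap, while 28 of the 44 genes at 4 weeks have every icKO sample above every Ctrl sample, as do 46.1% of all genes.

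In E10.5 hearts most collagen genes differed little between cKO and Ctrl, and Col8a1 was the member that passed the threshold. Genes were tested with limma on log2(RPKM + 0.1) where the mean RPKM over the 6 samples of the table was above 1, and called at an adjusted p under 0.05 (Benjamini-Hochberg over all genes tested) with a log2 fold change beyond 1. SE is the standard error of the log2 fold change. Of the 44 members 24 passed the filter, 1 was called higher and 0 lower. Over all 10885 genes tested, 0.239% were called higher and 0.542% lower. At an unadjusted limma p under 0.05, 9 members were higher and 0 lower, where 4.39% of all genes tested were higher and 19.2% lower. Every cKO sample lay above every Ctrl sample in 12 of the 44 members, where 5.52% of the 16562 genes with any value did so, and below in 0 members, where 17.3% did so.

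Among the fibrillar genes, Col3a1, whose product forms fibres together with type I collagen, had the highest level of the class. It was at 63.5, 38.0 and 42.1 RPKM in Ctrl replicates 1, 2 and 3 and at 55.6, 60.9 and 64.5 in cKO replicates 1, 2 and 3. Ctrl replicate 1 lay within the cKO range, and the log2 fold change was 0.37 (SE 0.181, adjusted p = 0.250 by limma). Col2a1, the main collagen of cartilage, was at 30.4, 34.0 and 35.9 RPKM in Ctrl and 30.0, 34.5 and 33.4 in cKO. These groups overlapped throughout, with a log2 fold change of −0.03 (SE 0.114, adjusted p = 0.886 by limma). Col5a1, a chain of type V collagen, which starts and limits the width of fibrils, was at 16.3, 13.5 and 16.008 RPKM in Ctrl and at 23.2, 25.5 and 24.2 in cKO. Its groups did not overlap, and its log2 fold change of 0.67 (SE 0.114) had a limma adjusted p of 0.0217 but stayed under the fold threshold. An adjusted p under 0.05 with a rise was given to 0.864% of all genes tested and to 2 of the 24 members tested, Col5a1 and Col8a1. In Col5a1 that adjusted p rose to 0.0854 without Ctrl replicate 3, to 0.0622 without cKO replicate 1, to 0.0836 without cKO replicate 2 and to 0.0542 without a trend in the variance.

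Both chains of type I collagen were detected at similar levels. Col1a1 was at 15.5, 8.68 and 8.23 RPKM in Ctrl and 12.54, 15.1 and 13.6 in cKO, with a log2 fold change of 0.40 (SE 0.217, adjusted p = 0.292 by limma). The spread among Ctrl samples, again through replicate 1, was as wide as the difference. Col1a2 had a log2 fold change of −0.17, and Col5a2 and Col11a1 had 0.22 and 0.01. Col27a1, a minor fibrillar collagen of cartilage, had −0.50 (adjusted p = 0.346 by limma). Col11a2 and Col24a1 stayed below a mean of 1 RPKM, and Col5a3 was under 0.1 RPKM in all 6 samples.

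As a class, the basement membrane genes had the highest summed collagen RPKM in E10.5 hearts. The 5 tested had log2 fold changes between 0.13 and 0.47. Col4a1 was at 90.8, 69.1 and 72.2 RPKM in Ctrl and 98.6, 112.8 and 107.0 in cKO. Col4a2 was at 54.4, 40.7 and 42.1 RPKM in Ctrl and 56.7, 66.0 and 61.2 in cKO. Neither gene's groups overlapped, and the log2 fold changes were 0.46 (SE 0.138, adjusted p = 0.0839 by limma) for Col4a1 and 0.43 (SE 0.137, adjusted p = 0.0983 by limma) for Col4a2. Col18a1, the source of the endostatin fragment, was at 57.4, 54.0 and 53.2 RPKM in Ctrl and 62.4, 73.9 and 64.4 in cKO, also without overlap, with a log2 fold change of 0.28 (adjusted p = 0.177 by limma). Col4a5 had a log2 fold change of 0.47 (adjusted p = 0.0612 by limma) and Col4a6 0.13 (adjusted p = 0.654 by limma). After median-ratio scaling the adjusted p fell to 0.0165 for Col4a1, 0.0231 for Col4a2 and 0.0224 for Col4a5, with log2 fold changes of 0.58, 0.55 and 0.59. Col4a3, Col4a4 and Col15a1 did not pass the filter.

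In the other collagens, Col8a1, a short-chain collagen of vessel walls and basement membrane sheets, was at 0.855, 1.05 and 0.882 RPKM in Ctrl and at 3.03, 4.69 and 2.82 in cKO. Every cKO sample was well above every Ctrl sample. Its Ctrl mean was 0.931 ± 0.109 RPKM and its cKO mean 3.51 ± 1.02 (SD, n = 3 each), and Col8a1 rose by 1.78 on the log2 scale (SE 0.244, adjusted p = 0.0112 by limma). The Ctrl mean was itself under the filter of 1 RPKM, so Col8a1 passed it through the cKO samples. Without Ctrl replicate 3 the adjusted p was 0.0615 with a log2 fold change of 1.75. Leaving out each other replicate kept the call.

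The 3 most abundant genes of this class were Col13a1, Col6a2 and Col23a1, and none of them passed the threshold. Col13a1, a membrane-spanning collagen, was at 7.497, 5.79 and 7.45 RPKM in Ctrl and 5.07, 5.51 and 6.76 in cKO. Col6a2, a chain of type VI collagen, was at 6.00, 4.25 and 4.90 RPKM in Ctrl and 6.58, 6.46 and 5.99 in cKO. Col23a1, also membrane-spanning, was at 5.41, 4.51 and 5.53 RPKM in Ctrl and 5.72, 7.71 and 4.36 in cKO. In all 3 genes the groups overlapped, with log2 fold changes of −0.25, 0.34 and 0.17. Col12a1, which decorates fibrils, had a log2 fold change of 0.87 (adjusted p = 0.0535 by limma) with no overlap between groups, and after median-ratio scaling the values were 0.99 and 0.0252. Col16a1 had 0.50 and Col26a1 0.06.

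The cartilage collagens of type IX were below 0 on the log2 scale, at −0.35 for Col9a1, −0.37 for Col9a2 and −0.88 for Col9a3, with limma adjusted p of 0.712, 0.448 and 0.308. In Col9a1 and Col9a3 cKO replicate 2 was far below the other cKO samples, with Col9a3 at 0.442 RPKM against 1.94 and 2.03. Ctrl replicate 2 was also the lowest of its group in both, at 1.08 and 1.56 RPKM. Col9a2 was at 1.06 RPKM in cKO replicate 2, near the 1.17 of replicate 3, and at 1.86 in replicate 1. Col6a1 was lowest in cKO replicate 2, at 2.31 RPKM, and had a log2 fold change of −0.27. Col7a1, which forms anchoring fibrils, was under the filter at 0.240, 0.248 and 0.197 RPKM in Ctrl and 0.406, 0.392 and 0.470 in cKO, without overlap. Col17a1, Col20a1 and Col22a1 also had every cKO sample above every Ctrl sample, at means of at most 0.896 RPKM. The other members under the filter were Col6a3, Col6a6, Col8a2, Col10a1, Col14a1 and Col25a1, whose groups overlapped. Col6a5, Col19a1 and Col28a1 were under 0.1 RPKM in all 6 samples, and Col6a4 was listed at 0 in all of them.

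In adult cardiomyocytes, 41 of the 44 members had a Ctrl mean under 1 RPKM, and the 3 above it were the type IV chains Col4a1, Col4a2 and Col4a5. Among the 12 members with a mean above 1 RPKM over all samples, the log2 fold changes of Col1a1, Col8a1, Col1a2, Col3a1 and Col5a2 were the highest, from 4.43 (Col1a1) to 3.65 (Col5a2). Those of Col4a1, Col4a2 and Col4a5 lay between 1.34 and 2.12. The added 0.1 RPKM lowers the fold change of members with less Ctrl RNA, such as Col12a1, so this order is that of the scale used. In the other class 12 of 25 members had every icKO sample above every Ctrl sample, against 8 of 11 fibrillar and 8 of 8 basement membrane genes. Of all genes 46.1% did so, so the other class was near that share. Tested without an RPKM filter, so that each member counts, 23 of the 44 were called higher and 0 lower by limma, where 21.3% of 16289 genes were called higher. After median-ratio scaling 21 members were higher and 1 lower, where 9.72% of genes were higher and 12.7% lower.

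With the filter, 12 members passed and all 12 were called higher, where 28.0% of 9517 genes were higher and 8.45% lower. This count is a description only, because 9 of the 12 had a Ctrl mean under 1 RPKM and passed through the icKO samples. After median-ratio scaling, 11 of the 12 were called higher, where 11.6% of all genes were, and the same limit holds for that count. Without the filter, Col22a1 was lower by limma at an unadjusted p of 0.0144 and an adjusted p of 0.0277. Its log2 fold change of −0.70 was short of the fold threshold. Every icKO sample lay above every Ctrl sample in 28 of the 44 members, where 46.1% of genes did so, and below in Col22a1 alone, where 15.1% did so. Values near zero were common in Ctrl, with 21 members under 0.1 RPKM in all 3 Ctrl samples and 13 under the level of 3 reads in each of them.

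The fibrillar genes were at most at 1.16 RPKM in any Ctrl sample. Col3a1 was at 0.642, 0.924 and 1.16 RPKM in Ctrl replicates 1, 2 and 3 and at 18.1, 8.83 and 11.999 in icKO replicates 1, 2 and 3. Col1a1 was at 0.320, 0.356 and 0.629 RPKM in Ctrl and 14.9, 8.001 and 11.4 in icKO. Col1a2 was at 0.699, 0.514 and 0.896 RPKM in Ctrl and 14.0, 8.22 and 10.3 in icKO. In each gene icKO replicate 1 was highest and replicate 2 lowest, and the lowest icKO sample was many times the highest Ctrl sample.

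The mean of Col1a1 went from 0.435 ± 0.169 (SD, n = 3) to 11.4 ± 3.43 RPKM (SD, n = 3), a ratio of 26.3, and its log2 fold change was 4.43 (SE 0.271, adjusted p = 1.23e-06 by limma). Col3a1 rose 14.3-fold in its mean, with a log2 fold change of 3.67 (SE 0.272, adjusted p = 3.25e-06 by limma), and Col1a2 rose 15.4-fold, with 3.76 (SE 0.232). The log2 values are lower than the ratios of means imply because 0.1 RPKM was added before the logarithm. Col5a2 rose by 3.65 and Col5a1, the other main chain of type V collagen, by 2.03. After median-ratio scaling these 5 rises were 3.94, 3.16, 3.25, 3.21 and 1.54, in the order named, and all remained called. All 5 genes had a Ctrl mean under 1 RPKM and passed the filter through the icKO samples, so these calls are a description only. Without the filter Col27a1 and Col5a3 were also called higher, at 1.77 and 1.75, from Ctrl means of 0.0353 and 0.0983 RPKM, or at 1.48 and 1.40 after median-ratio scaling.

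Cartilage-type fibrillar genes stayed low. Col2a1 was at 0.459 RPKM in icKO replicate 1 and under 0.1 in the other 5 samples. Col11a1 and Col24a1 were listed at 0 in all Ctrl samples, and Col11a1 was at 0.0460, 0.008 and 0.0540 RPKM in icKO, where 3 reads correspond to 0.0223 to 0.0327. Its mean was at least 1.21-fold higher than that level in the Ctrl libraries. Col11a2 was at about the same level in both groups, with means of 0.200 and 0.164 RPKM.

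Basement membrane genes were the collagens that Ctrl cardiomyocyte samples held in quantity. Col4a1 was at 15.4, 18.8 and 26.2 RPKM in Ctrl and 89.8, 75.9 and 92.7 in icKO. Col4a2 was at 24.7, 28.7 and 36.4 RPKM in Ctrl and 76.7, 68.7 and 79.5 in icKO. Col4a5 was at 8.25, 7.94 and 7.03 RPKM in Ctrl and 26.4, 24.8 and 31.0 in icKO. None of these groups overlapped, and these 3 genes had a mean above 1 RPKM in both groups, so their tests do not rest on the filter.

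The rises on the log2 scale were 2.12 for Col4a1 (SE 0.176, adjusted p = 6.08e-06 by limma), 1.81 for Col4a5 (SE 0.110, adjusted p = 1.19e-06 by limma) and 1.34 for Col4a2 (SE 0.136, adjusted p = 2.01e-05 by limma). After median-ratio scaling they were 1.58, 1.27 and 0.80, and Col4a2 no longer passed the fold threshold, though its adjusted p was 0.000823. Col15a1, a basement membrane collagen of muscle and vessels, rose by 2.10 from a Ctrl mean of 0.551 RPKM. It had the widest error of the members tested (SE 0.446) and rose by 1.62 after median-ratio scaling. Col15a1 passed the filter through the icKO samples, so its call is a description only. Of the members under the filter, Col18a1 had 0.151, 0.192 and 0.199 RPKM in Ctrl and 1.55, 0.856 and 0.847 in icKO, and its rise without the filter was 2.03, or 1.61 after median-ratio scaling. Col4a6 and Col4a4 were called at 1.35 and 1.18 without the filter, and Col4a4 no longer after median-ratio scaling. Col4a3 was not called, with means of 0.0693 and 0.138 RPKM.

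Among the 3 other collagens that passed the filter at 4 weeks, Col8a1 had the highest log2 fold change. It was at 0.0890, 0.144 and 0.184 RPKM in Ctrl and at 3.90, 4.19 and 4.25 in icKO, the narrowest icKO spread of the genes with large rises. Its log2 fold change was 4.16 (SE 0.233, adjusted p = 8.30e-07 by limma), and 3.73 after median-ratio scaling. Col8a1 had a Ctrl mean of 0.139 RPKM and passed the filter through the icKO samples, so its call is a description only. The partner chain Col8a2 was at 0, 0.0130 and 0 RPKM in Ctrl, under the level of 3 reads, and at 0.218, 0.124 and 0.134 in icKO.

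Col6a1 and Col6a2, chains of type VI collagen, both rose. Col6a2 was at 0.285, 0.596 and 0.729 RPKM in Ctrl and 3.17, 2.73 and 3.10 in icKO. Col6a1 was at 0.287, 0.560 and 0.789 RPKM in Ctrl and 3.498, 2.52 and 2.68 in icKO. Ctrl replicate 1 was lowest in both, and the groups did not overlap. The rises were 2.35 (SE 0.284, adjusted p = 6.06e-05 by limma) and 2.28 (SE 0.306, adjusted p = 0.000117 by limma), or 1.87 and 1.796 after median-ratio scaling. Both genes had a Ctrl mean under 1 RPKM and passed the filter through the icKO samples, so these calls are a description only. Col6a3, the third chain of the same molecule, had means of 0.123 and 0.567 RPKM and was called at 1.64 without the filter.

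Several collagens that decorate fibrils also rose without the filter. Col12a1 was at 0.006, 0.01 and 0.01 RPKM in Ctrl, under the level of 3 reads in each sample, and at 1.18, 1.07 and 0.927 in icKO. Col16a1 was at 0.0730, 0.0660 and 0.0690 RPKM in Ctrl and 1.23, 0.915 and 1.117 in icKO, with a log2 fold change of 2.80. Col14a1 rose by 1.89 and Col7a1 by 1.57. After median-ratio scaling Col16a1, Col14a1 and Col7a1 rose by 2.43, 1.51 and 1.33. Among those not called were Col10a1, Col13a1, Col17a1, Col20a1 and Col23a1. Col22a1, a collagen of muscle and tendon junctions, was at 0.199, 0.159 and 0.251 RPKM in Ctrl and 0.0970, 0.108 and 0.0550 in icKO, and was the 1 member called lower without the filter after median-ratio scaling, at −1.001. Col9a1, Col9a2, Col9a3, Col19a1, Col26a1, Col6a4 and Col6a5 were listed at 0 in all Ctrl samples, and of these Col9a2 reached above the level of 3 reads in icKO. Col25a1, Col28a1 and Col6a6 were under 0.1 RPKM in all 6 samples.

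**Figure D2:**
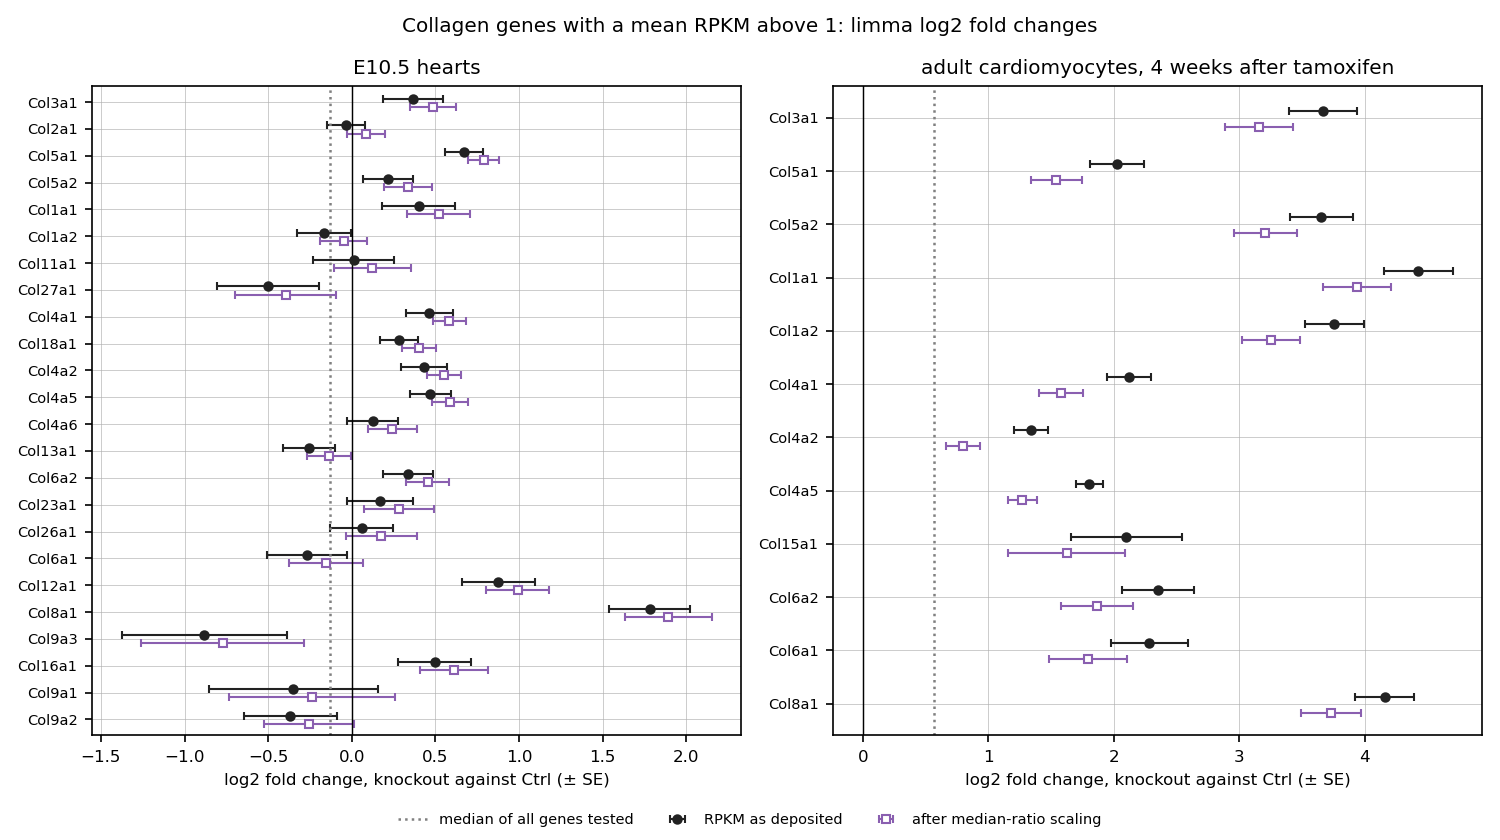
Log2 fold change with standard error of every collagen gene with a mean RPKM above 1, at E10.5 (24 genes) and at 4 weeks (12 genes). Black circles are RPKM as deposited, open squares follow median-ratio scaling, and the dotted line is the median of all genes tested. At 4 weeks all genes lie to the right of that median on both scales, from 1.34 for Col4a2 to 4.43 for Col1a1 as deposited. Of the 12 genes at 4 weeks, 9 passed the filter through the icKO samples.

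Summed over members, collagen RNA was 379 ± 47.7 RPKM in E10.5 Ctrl and 472 ± 31.0 in cKO hearts, and 64.6 ± 12.6 in 4-week Ctrl and 251 ± 27.8 in icKO cardiomyocytes (SD, n = 3 each). The ratio of knockout to Ctrl means was 1.24 at E10.5 and 3.88 at 4 weeks. By class, the 4-week ratio was 13.8 for fibrillar, 3.28 for basement membrane and 5.57 for other collagens. At E10.5 it was 1.18, 1.32 and 1.121.

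The share of each class within a sample does not depend on scaling between samples. In 4-week Ctrl, 91.3%, 91.0% and 90.7% of the summed collagen RPKM came from basement membrane genes, against 73.0%, 79.2% and 79.0% in icKO. Fibrillar genes took 4.80%, 4.59% and 4.92% in Ctrl and 20.7%, 14.4% and 15.2% in icKO. The lowest icKO share of fibrillar genes was well above the highest Ctrl share. At E10.5 the classes were more even, with fibrillar genes at 36.7% ± 0.970 in Ctrl and 34.8% ± 0.199 in cKO (SD, n = 3). Basement membrane genes were at 52.9% ± 1.22 and 55.8% ± 0.667. Neither pair of E10.5 groups overlapped, though the differences were 1.96 percentage points lower for fibrillar genes and 2.98 percentage points higher for basement membrane genes. With 3 samples against 3 an exact permutation test cannot give a p under 0.1, so the shares are given without a test.

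**Figure D3:**
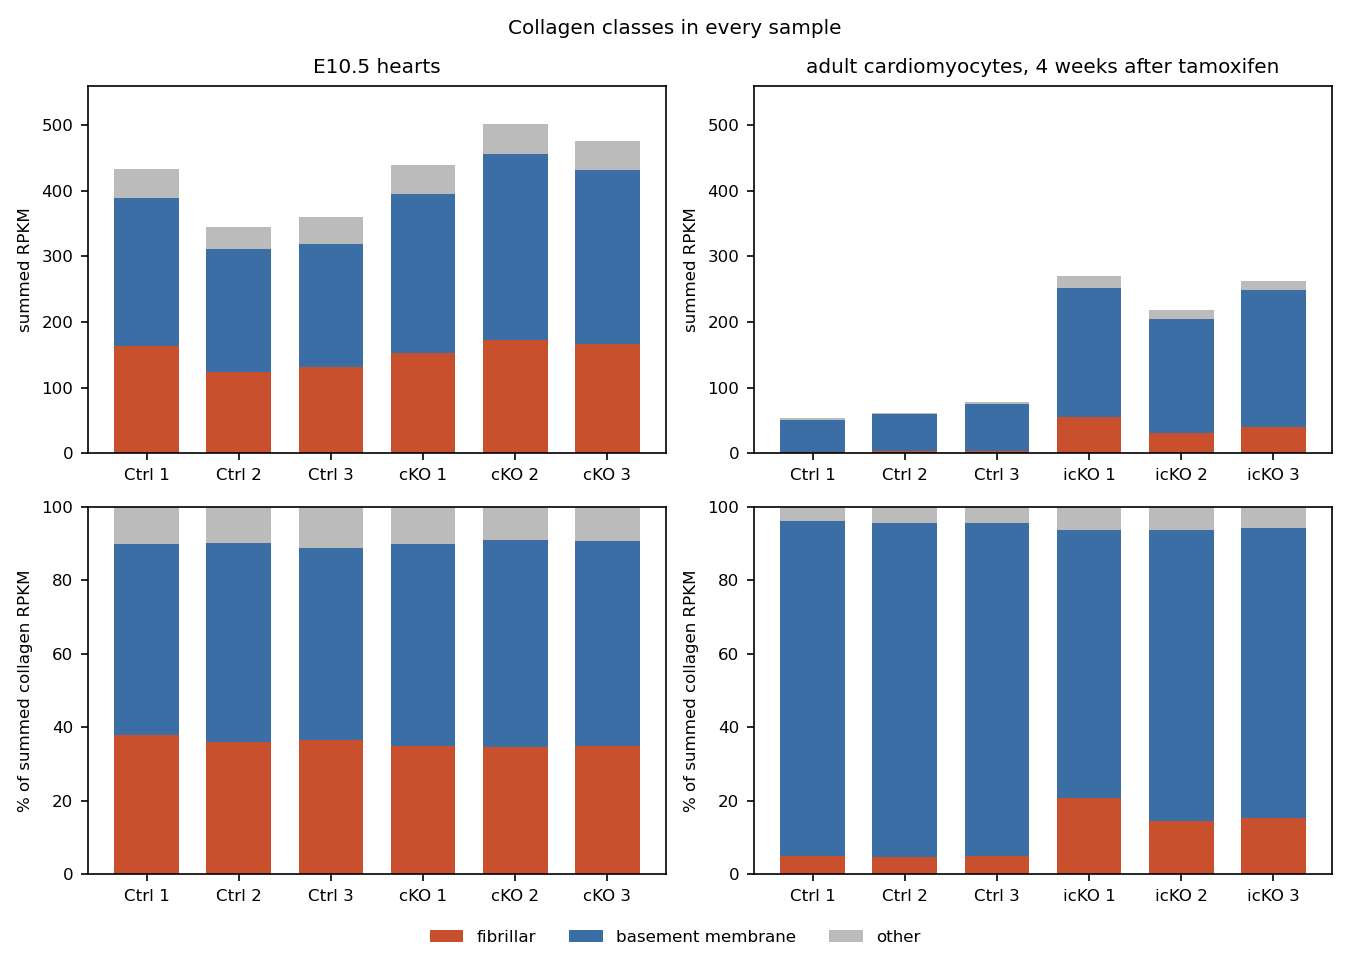
Summed RPKM (top, bars from 0) and percent of summed collagen RPKM (bottom) of fibrillar, basement membrane and other collagen genes in each of the 12 samples. In adult cardiomyocytes the fibrillar part grows from 4.59% to 4.92% in Ctrl to 14.4% to 20.7% in icKO, while at E10.5 it stays between 34.5% and 37.8% in all samples.

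As a median over members, the 8 fibrillar genes tested in E10.5 hearts stood at 0.11 on the log2 scale, with 5 of 8 above 0. The median was 0.43 for basement membrane genes, with 5 of 5 above 0, and 0.06 for the others, with 6 of 11 above 0, while the median of all genes was −0.13. At 4 weeks, over all members without the filter, the medians were 1.77 for fibrillar, 1.58 for basement membrane and 0.29 for other collagens, beside 0.36 for all genes. Setting members listed at 0 in all Ctrl samples to their lower bound, or to no change where both groups lay under 3 reads, gave 1.77, 1.58 and 0.15.

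Chains that assemble into the same molecule were also compared within each sample, as a ratio of RPKM and with no test. The ratio of Col1a1 to Col1a2 RPKM was 0.458, 0.693 and 0.702 in 4-week Ctrl and 1.07, 0.973 and 1.11 in icKO. At E10.5 it was 0.981, 0.757 and 0.784 in Ctrl and 1.25, 1.21 and 1.26 in cKO. The ratio was thus higher in every knockout sample than in every Ctrl sample of its stage, with a mean difference of 0.432 at 4 weeks and 0.401 at E10.5. These 2 differences come from separate samples.

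For type IV collagen, the ratio of Col4a1 to Col4a2 was 0.625, 0.655 and 0.721 in 4-week Ctrl and 1.17, 1.10 and 1.17 in icKO, without overlap. At E10.5 the same ratio was 1.69 ± 0.0229 in Ctrl and 1.73 ± 0.0212 in cKO (SD, n = 3), and those groups overlapped. Col4a1 was the lower chain in adult Ctrl samples and the higher chain in the other 3 groups. The ratio of Col6a1 to Col6a2 overlapped between groups at 4 weeks, with means of 1.0096 and 0.964, and was lower in cKO at E10.5, at 0.617, 0.357 and 0.681 against 0.853, 0.909 and 0.703. At E10.5 the ratio of the neighbours Col4a5 to Col4a6, chosen after its values were seen, was 3.06, 3.06 and 3.30 in Ctrl and 4.14, 3.87 and 3.95 in cKO, without overlap. The ratio of Col5a1 to Col5a2, chosen in the same way, was 3.34, 1.65 and 2.83 in 4-week Ctrl and 0.673, 0.693 and 0.529 in icKO, while at E10.5 it was higher in cKO, at 1.23, 1.13 and 1.5003 against 0.856, 0.928 and 1.02.

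**Figure D4:**
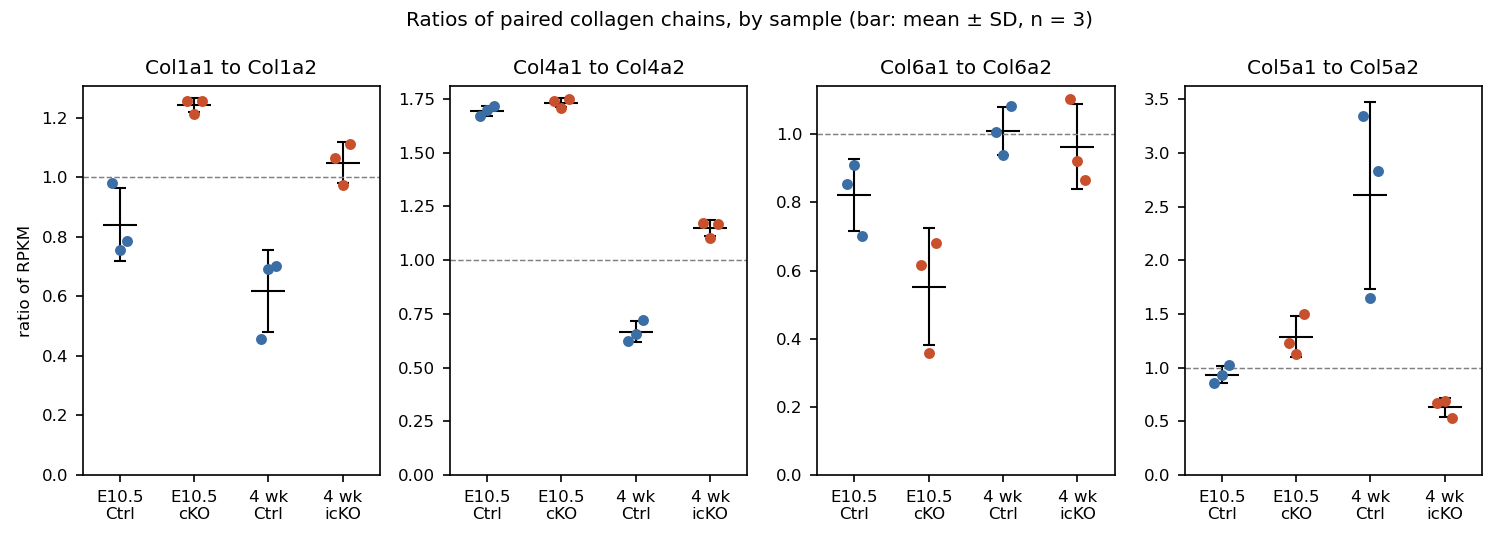
Ratio of the RPKM of 2 chains of 1 collagen type in every sample, from left to right for types I, IV, VI and V, with Ctrl in blue and knockout in orange, the mean and SD of 3 samples as bars and a dashed line at 1. The Col1a1 to Col1a2 ratio is higher in knockout at both stages, and the Col4a1 to Col4a2 ratio moves from a mean of 0.667 to 1.15 at 4 weeks alone.

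The knockout effect was larger at 4 weeks than at E10.5 for most members that could be tested at both stages. In a limma contrast over all 12 samples, 11 members had a mean above 1 RPKM in both tables and 10 of them differed, all upward, where 34.3% of 8909 genes did so. This count is a description only, because 8 of the 11, all 8 of them called, had a 4-week Ctrl mean under 1 RPKM and passed through the icKO samples. Col4a1, Col4a2 and Col4a5 were the 3 that did not. Without the filter, 22 members differed upward and 1 downward, where 25.8% and 5.33% of 15543 genes did so, and after median-ratio scaling 16 and 2, where 9.15% and 11.4% did so. The differences on the log2 scale ran from 1.34 for Col4a5 (SE 0.169, adjusted p = 1.42e-05 by limma) to 4.03 for Col1a1 (SE 0.383, adjusted p = 1.47e-06 by limma). Col4a2 had a difference of 0.91 (adjusted p = 0.00153 by limma), under the fold threshold. After median-ratio scaling 7 of the 11 differed, where 10.7% of genes did so. That count is also a description only, because all 7 had a 4-week Ctrl mean under 1 RPKM. Col4a1, Col4a5 and Col4a2 stood at 0.998, 0.68 and 0.25, under the fold threshold, and the limma adjusted p of Col4a2 was 0.277. Stage, Cre line, tissue and the isolation of cells differ together between these tables and cannot be told apart.

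Some genes that process collagen were also higher in icKO cardiomyocytes, and a few were lower. Of 36 genes for synthesis and processing, 26 passed the filter at 4 weeks, 12 were called higher and 3 lower, where 28.0% of all genes were higher and 8.45% lower. Their median log2 fold change was 0.89 beside 0.57 for all genes. Of the 12, Lox, P3h2, Loxl1 and Adamts2 had a Ctrl mean under 1 RPKM and passed through the icKO samples, and the other 8 came from the 22 genes with a Ctrl mean above 1. Lox, which crosslinks collagen fibres, was at 0.0670, 0.0380 and 0.0790 RPKM in Ctrl and 2.75, 2.67 and 1.49 in icKO and rose by 3.86. Sparc, a collagen-binding matrix protein, was at 10.6, 9.84 and 12.1 RPKM in Ctrl and 86.9, 87.6 and 101.8 in icKO and rose by 3.07 (adjusted p = 1.26e-07 by limma). P3h2, a prolyl 3-hydroxylase that acts on type IV collagen, rose by 2.97 and Pcolce2, an enhancer of procollagen cleavage, by 2.21. After median-ratio scaling Lox, Sparc, P3h2 and Pcolce2 rose by 3.49, 2.54, 2.47 and 1.68.

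The 3 genes called lower act on collagen chains inside the endoplasmic reticulum, where products of genes called higher also act, such as P4hb (1.35), P4ha2 (1.11) and Plod3 (1.40). After median-ratio scaling P4hb, P4ha2 and Plod3 stood at 0.81, 0.57 and 0.87, under the fold threshold. P3h4 fell by 1.53, Crtap by 1.51 and Fkbp10 by 1.27 on the log2 scale, with limma adjusted p of 2.68e-05, 3.46e-05 and 0.00184, and these 3 stayed called after median-ratio scaling, at −2.06, −2.03 and −1.79. Crtap, a partner of prolyl 3-hydroxylase, was at 4.59, 5.31 and 4.47 RPKM in Ctrl and 1.66, 1.29 and 1.95 in icKO. Serpinh1, the collagen chaperone HSP47, was not called, at 25.7, 26.5 and 38.5 RPKM in Ctrl and 32.2, 38.8 and 42.1 in icKO. Of 10 collagen receptor genes 3 passed the filter and 2 were called higher, Itgb1 by 1.44 and Ddr1 by 1.34. Under the filter, the means in Ctrl and icKO were 0.174 and 0.361 RPKM for Ddr2, the discoidin receptor of fibroblasts. They were 0.105 and 1.06 for Mrc2 and 0.0287 and 0.400 for Itga11. In 6 of the 10 every icKO sample lay above every Ctrl sample, where 46.1% of all genes did so. After median-ratio scaling, 6 synthesis genes and 0 receptor genes were called higher in place of 12 and 2, where 11.6% of all genes were, with Itgb1 at 0.90 and Ddr1 at 0.81 and limma adjusted p under 0.05 for both.

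At E10.5, 28 synthesis and 4 receptor genes passed the filter and 0 were called by limma in either direction. Of all genes tested, 0.239% were called higher and 0.542% lower. At an unadjusted limma p under 0.05, 4 synthesis genes and 1 receptor gene were higher and 2 synthesis genes lower. At that threshold 4.39% of all genes tested were higher and 19.2% lower. Plod2, a lysyl hydroxylase, had a log2 fold change of 0.62 (adjusted p = 0.0240 by limma) and P3h2 0.55 (adjusted p = 0.0453 by limma), both under the fold threshold.

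Markers of other cell types were measured beside the collagens. The 12 fibroblast markers summed to 37.4 to 44.0 RPKM in 4-week Ctrl and 19.8 to 30.7 in icKO, a ratio of means of 0.616, while fibrillar collagens rose 13.8-fold. That sum was set by Ogn and Fbln1, which fell by 2.06 and 3.31 on the log2 scale. Of the 12 genes, 9 had a higher mean in icKO, and in 8 every icKO sample lay above every Ctrl sample, where 46.1% of all genes did so. Ogn, Fbln1 and Scara5 were lower in every icKO sample. Pdgfra, a defining receptor of fibroblasts, was at 0.273, 0.240 and 0.284 RPKM in Ctrl and 1.64, 0.755 and 0.402 in icKO. Tcf21, a fibroblast transcription factor, was at 0.123, 0 and 0 RPKM in Ctrl and 0.337, 0.437 and 0.611 in icKO. Dcn and Mfap5 were called higher, at 1.13 and 3.25, and Mfap5 alone after median-ratio scaling, at 2.80 (Dcn 0.60). Mfap5 had a Ctrl mean of 0.236 RPKM and passed the filter through the icKO samples, so its call is a description only.

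Of the 6 markers of activated fibroblasts, Postn was at 0.249, 0.504 and 0.348 RPKM in Ctrl and 26.2, 24.99 and 22.0 in icKO and rose by 5.75, and Fn1 rose by 2.98, or 5.26 and 2.47 after median-ratio scaling. Their Ctrl means were 0.367 RPKM for Postn and 0.66 for Fn1. Both passed the filter through the icKO samples, so these calls are a description only. Cthrc1 was at 0, 0 and 0.0510 RPKM in Ctrl and 0.763, 0.462 and 0.430 in icKO, and Tnc at 0, 0.0160 and 0.0250 in Ctrl and 0.916, 1 and 0.341 in icKO. Acta2 was at 49.0, 63.5 and 31.9 RPKM in Ctrl and 27.6, 37.0 and 42.7 in icKO, with overlap, and its Ctrl mean of 48.1 was nearly all of the Ctrl sum of 49.2. The sum of the 6 was 33.1 to 64.6 RPKM in Ctrl and 62.9 to 71.9 in icKO, a ratio of means of 1.37 as deposited and 0.946 after median-ratio scaling. Of the 9517 genes that passed the filter, 28.0% were called higher and 8.45% lower, which is the background for the counts that follow. Macrophage markers summed to 3.28 to 5.54 and 8.09 to 11.4 RPKM. Of the 9, 3 passed the filter and 2 were called higher, 1 of them from a Ctrl mean under 1 RPKM. Endothelial markers summed to 12.004 to 32.3 and 31.1 to 56.6 RPKM, and all 9 passed the filter, with 2 called higher. Mural markers summed to 435 to 473 and 998 to 1191 RPKM, and nearly all of that sum was Des, which cardiomyocytes also express. Of the 7 mural markers, 4 passed the filter and 3 were called higher, 1 of them from a Ctrl mean under 1 RPKM. Cardiomyocyte markers summed to 27715 to 29278 RPKM in Ctrl and 11535 to 14571 in icKO, and all 10 passed the filter, with 6 called lower. After median-ratio scaling, 0 macrophage, 0 endothelial and 1 mural gene were called higher, where 11.6% of genes were. On that scale 8 cardiomyocyte genes were called lower, where 1476 of 9517 genes were. Cells had been released with collagenase, filtered and spun at low speed, and the part that such other cells have in the collagen values was not tested.

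**Figure D5:**
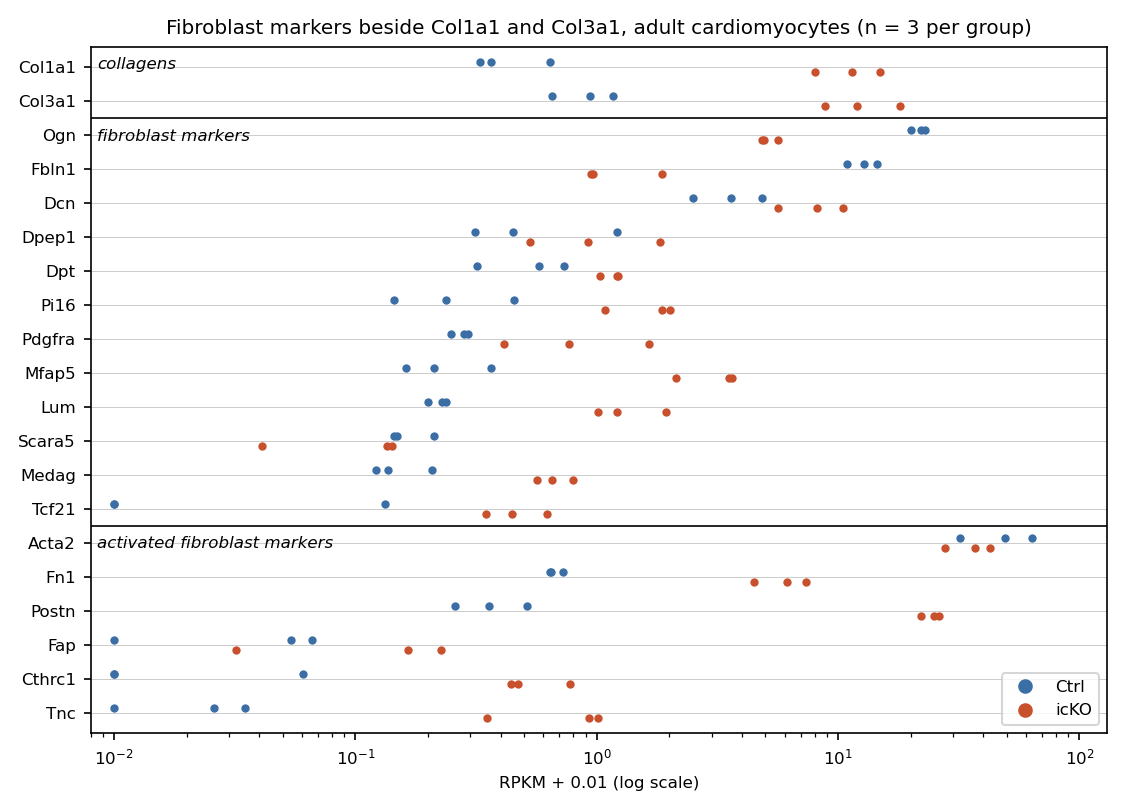
RPKM of Col1a1 and Col3a1, of the 12 fibroblast markers and of the 6 activated fibroblast markers in adult cardiomyocyte samples, on a log axis after adding 0.01, with Ctrl in blue and icKO in orange. Markers such as Pdgfra, Lum and Pi16 are higher in every icKO sample, Ogn, Fbln1 and Scara5 are lower in every one, and Postn moves from under 1 RPKM to 22.0 to 26.2.

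At E10.5, 0.239% of all genes tested were called higher and 0.542% lower, which is the background for the counts that follow. The fibroblast markers summed to 42.5 to 59.2 RPKM in Ctrl and 40.1 to 46.0 in cKO. Of the 12, 4 passed the filter and 0 were called by limma. At an unadjusted limma p under 0.05, 1 was lower, where 19.2% of all genes tested were. Endothelial markers summed to 149.6 to 197.0 and 173.7 to 187.5 RPKM, activated fibroblast markers to 554 to 643 and 659 to 748, and mural markers to 122 to 157 and 139 to 152. Of these, 9 of 9, 5 of 6 and 5 of 7 passed the filter, and 0 were called. Most of the activated fibroblast sum was Acta2, at means of 366 RPKM in Ctrl and 468 in cKO, and Fn1, at 187 and 215. Postn, Cthrc1 and Tnc had lower means in cKO, and Fap a higher one of 0.054 RPKM. Most of the mural sum was Des, at means of 126 and 127 RPKM. Epicardial markers ranged from 60.3 to 72.0 and 58.4 to 80.7 RPKM, and endocardial and cushion markers from 155.7 to 187.3 and 104.6 to 157.3. Macrophage markers ranged from 8.90 to 12.1 and 5 to 7.09 RPKM, and of the 2 that passed the filter, 1 was called lower. Erythroid markers varied most, from 230 to 769 RPKM in Ctrl and 365 to 2163 in cKO. Cardiomyocyte markers ran from 6664 to 9880 and 4958 to 5869 RPKM, with 1 of 10 called lower. Cartilage and Schwann markers stayed at or below 1.49 and 2.08 RPKM in sum at E10.5, and none of their genes passed the filter at either stage. The part of these in the E10.5 collagen values was not tested. At 4 weeks, cartilage markers summed to 0.0480 to 0.116 RPKM in Ctrl and 0.724 to 1.64 in icKO, epicardial markers to 1.02 to 3.28 and 1.63 to 4.23, endocardial and cushion markers to 22.0 to 31.0 and 62.6 to 69.9, Schwann markers to 0.203 to 0.456 and 0.101 to 0.198, and erythroid markers to 1.17 to 7.49 and 3.91 to 8.41. Most of the endocardial and cushion sum was Tbx20, at means of 21.95 RPKM in Ctrl and 61.8 in icKO. Of the same list, Nfatc1 had means of 3.19 and 4.08 RPKM and Npr3 of 0.782 and 0.822. Most of the cartilage sum in icKO was Comp, at a mean of 1.21 RPKM beside 0.042 in Ctrl.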

How the data were processed

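RNA-seq had been run on ribosome-depleted total RNA of 12 samples. The authors mapped reads to GRCm38 (mm10), counted them per gene and deposited 1 table a stage with RPKM per sample. The submitters' processing notes name cutadapt 2.6, STAR 2.5.3a, HOMER 4.11.1 and DESeq2 1.12.4 without roles. Which annotation was used, and which reads each library total counts, is not given in the sources used here. Both tables name knockout columns icKO. At E10.5 these were taken as the cKO samples that the labels give for that table. Columns with the authors' mean RPKM, log2 fold change and FDR were not used.

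RPKM were not rescaled. The log2(RPKM + 0.1) values of genes with a mean RPKM above 1 were fitted in R 4.3.3 by limma 3.58.1, with lmFit and trended eBayes, each table on its own, and all 12 samples together for the difference between stages. Sums, shares and plots were made with matplotlib 3.10.9, numpy 2.4.6 and pandas 2.3.3 in Python 3.11.15. Depth was taken as the library total that puts the largest share of low values (up to 12 reads) on whole reads on the longest GENCODE transcript of each of 20540 matched genes. Within 0.1 of a whole read lay 51.0% to 57.8% of them, against 20% by chance, so the reads were not recovered and no count test was run. The fits were tested on simulated data.

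Alternatives were pseudocounts of 1 and 0.01, no filter, a mean above 5, quantile normalization, median-ratio scaling, a library total that leaves out the 20 most abundant genes, untrended eBayes, a block on replicate number and leaving out each replicate in turn. No filter together with median-ratio scaling was added after the data were seen. The collagen genes and gene lists were chosen with earlier results of these data known. Values in every sample are given for the 3 members of each class with the highest mean RPKM in each table, for up to 3 called members with the largest change in each direction and for Col1a1 and Col3a1. Other members are given by fold change or name, and some low ones by their values, chosen after these were seen. Protein sequences and genome sequence outside the promoter table were not used here.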

Additional observations from a re-analysis of the deposited data

Results flagged for a closer look

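The knockout effect on 10 of 11 collagen genes tested differed between stages, all upward, where 34.3% of 8909 genes did so. This was a test of the difference itself (limma contrast over 12 samples, adjusted p under 0.05 with a difference beyond 1). The effect at 4 weeks minus that at E10.5, on the log2 scale, was 4.03 for Col1a1, 3.93 for Col1a2, 3.44 for Col5a2, 3.30 for Col3a1, 2.55 for Col6a1, 2.38 for Col8a1, 2.02 for Col6a2, 1.66 for Col4a1, 1.36 for Col5a1 and 1.34 for Col4a5. Of these genes, 8 had a 4-week Ctrl mean under 1 RPKM and were tested because their icKO values lifted the mean over that filter, which favours an upward difference, and Col4a1 and Col4a5 were the others. The median difference over all genes tested was 0.69. After median-ratio scaling the differences of Col4a1, Col4a5 and Col5a1 were 0.998, 0.68 and 0.76, under the fold threshold, with adjusted p of 0.00207, 0.00400 and 0.00371. Groups of 3 samples were too small for a check of single outlying samples.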

How the results depend on the processing

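The 12 collagen genes tested at 4 weeks kept their direction and an adjusted p under 0.05 in 72 of 72 fits without 1 replicate. They did so in 114 of 114 fits under the other alternatives. Of the 12, 9 had a Ctrl mean under 1 RPKM and passed the filter through the icKO samples, which favours a rise. As reported, 5765 of 9517 genes tested at 4 weeks rose and 1727 fell at an adjusted p under 0.05 by limma. Counts and medians moved as follows. Collagen genes called higher at E10.5 numbered 1 as reported, 0 with a mean RPKM above 5, which leaves Col8a1 untested, and 2 when the 20 most abundant genes were left out of the library total. Omission of single replicates gave 0 to 1, with 0 without Ctrl replicate 3. All genes called higher at E10.5 numbered 26 as reported, 12 with a pseudocount of 1, 17 with no filter, 9 with a mean above 5, 48 without the 20 most abundant genes and 9 to 36 with single replicates omitted. All genes called lower at E10.5 numbered 59 as reported, 36 with a pseudocount of 1, 35 with no filter, 34 with a mean above 5, 39 with quantile normalization, 36 without the 20 most abundant genes, 38 without trend, 34 with no filter and median-ratio scaling and 18 to 102 with single replicates omitted. The lowest count without a replicate was that without Ctrl replicate 3 and the highest that without cKO replicate 3. Collagen genes called higher at 4 weeks numbered 12 as reported, 23 with no filter, 6 with a mean above 5 and 21 with no filter and median-ratio scaling, which also called 1 lower. All genes called higher at 4 weeks numbered 2668 as reported, 1687 with a mean above 5, 1106 with median-ratio scaling, 1213 with quantile normalization and 1583 with no filter and median-ratio scaling, and those lower 804, 454, 1476, 1341 and 2068 in the same order. Collagen synthesis, processing and receptor genes called higher at 4 weeks numbered 14 as reported, 9 with a mean above 5, 6 with median-ratio scaling and 8 with quantile normalization, and those lower 3 as reported and 1 with a mean above 5. Collagen genes whose knockout effect differs between stages numbered 10 higher and 0 lower as reported, 22 higher and 1 lower with no filter, 5 higher with a mean above 5 and 16 higher and 2 lower with no filter and median-ratio scaling. All genes that differed upward numbered 3057, 4003, 1796 and 1422 in the same order, and those downward 448, 828, 168 and 1771. The cause of these shifts was not tested, beyond the number of genes that each filter leaves. The median log2 fold change of fibrillar collagens at E10.5 was 0.11 as reported and 0.33 with no filter and median-ratio scaling. The median log2 fold change of other collagens at E10.5 was 0.06 as reported and -0.0125 to 0.263 with single replicates omitted, changing sign without cKO replicate 1 (-0.0125) and without cKO replicate 2 (-0.0051). The median log2 fold change of fibrillar collagens at 4 weeks was 3.67 as reported, 2.77 with a pseudocount of 1, 1.77 with no filter, 3.21 with median-ratio scaling, 3.24 with quantile normalization and 1.48 with no filter and median-ratio scaling. The median log2 fold change of basement membrane collagens at 4 weeks was 1.95 as reported, 1.504 with a pseudocount of 1, 1.58 with no filter, 1.81 with a mean above 5, 1.43 with median-ratio scaling, 1.46 with quantile normalization, 1.72 without the 20 most abundant genes, 1.196 with no filter and median-ratio scaling and 1.73 to 2.03 with single replicates omitted. The median log2 fold change of other collagens at 4 weeks was 2.35 as reported, 1.39 with a pseudocount of 1, 0.29 with no filter and 0.10 with no filter and median-ratio scaling. With type IV genes alone as the basement membrane class, its percent of collagen RPKM went from 52.9 to 38.3 in E10.5 Ctrl, from 55.8 to 41.7 in cKO and from 91.0 to 89.9 in 4-week Ctrl, and that of other genes from 10.4 to 25.017, from 9.41 to 23.6, from 4.24 to 5.33 and, in icKO, from 6.14 to 7.55. The summed activated fibroblast markers, in which Acta2 made up nearly all of the Ctrl sum, had a ratio of knockout to Ctrl at 4 weeks of 1.37 as reported and 0.946 with median-ratio scaling, a change of direction of the sum that Postn and Fn1 did not share. Samples with the same replicate number did not deviate together, with correlations of 0.0124, 0.101 and -0.0698 at E10.5 and 0.153, 0.0433 and 0.0450 at 4 weeks, so the numbers were not taken as pairs. With the replicate number as a block, all genes called numbered 32 higher and 61 lower at E10.5 and 2672 and 805 at 4 weeks, collagen genes 1 and 12, and 10 collagen genes differed between stages, while Col12a1 at E10.5 had an adjusted p of 0.0435. Depth of 11900000 to 17500000 reads at 4 weeks leaves the 13 members under 3 reads in each 4-week Ctrl sample without a measurable fold, apart from lower bounds.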
